A study of Xenopus laevis with 3 samples.

Results

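The pigment cell lineage was followed in the larval inner ear through 8 genes, tyrp1, pmel, slc45a2, kit, ednrb2, mitf, pax3 and snai2. Members were all frog probe sets of the Affymetrix array whose single gene symbol in the platform annotation, without the suffix for the gene copy, is one of these names. This gave 19 of 32475 frog probe sets, and 8 of the 9240 genes that have a probe set with a single symbol. The samples were pooled inner ears of Xenopus laevis larvae from a commercial supplier, at stages 56 to 58 and 38 to 44 days after fertilization, and the labels give no strain, genotype, treatment or control group. Replicates 1, 2 and 3 pooled the ears of 10, 7 and 8 animals with mean body weights of 0.55, 0.59 and 0.48 g, and each pool was hybridized to 1 array. All values therefore describe a single condition, and a difference between pools cannot be told apart from one between arrays.

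Pigment cells of the body arise from the neural crest. The factors pax3 and snai2 act in the crest and its early derivatives, mitf drives the melanocyte programme, the receptors kit and ednrb2 guide and maintain the migrating precursors, and tyrp1, pmel and slc45a2 serve the melanosome, the organelle in which melanin is made. In mammals, melanocytes lie in the stria vascularis of the cochlea and near the dark cells of the vestibular organs. In humans, variants of MITF, PAX3, SNAI2 and the endothelin receptor gene EDNRB are known causes of Waardenburg syndrome, which combines loss of pigment with deafness. Xenopus laevis is allotetraploid, so many genes have an L copy and an S copy, named for the long and short chromosomes of each pair.

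Values are GCRMA values, which are background corrected and normalized log2 intensities. A probe set was called detected at a mean of 4 or higher, the threshold that the study used, and each mean was also tested against 4 with limma. Because probe sets differ in how strongly they bind their target, a value shows whether a probe set stood above the threshold, and the levels of different probe sets were not set against each other. In tissue RNA, fewer pigment cells and less RNA per cell cannot be told apart. The arrays correlated at r = 0.994 to 0.996 over all frog probe sets, and their medians were 7.49, 7.50 and 7.53. Each mean rests on 3 arrays, which limits its precision.

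All member genes but mitf had a detected probe set (7 of 8, 87.5%, where 79.9% of all genes with a symbol did). Of the 19 probe sets 10 were detected (52.6%), beside 64.8% of all frog probe sets. The same 10 had a mean above 4 in limma's one-sided test, where 63.1% of all frog probe sets passed. Among annotated frog probe sets the detected share was 69.8% to 75.3% by type of source sequence, so by probe sets the members lay lower. By genes they lay higher than all genes with a symbol. That order rests on counting pax3 as detected, although its probe sets gave opposite calls. With 8 genes, these counts do not set the members apart. Detected and undetected members lay far apart. Means near the threshold were rare over the whole array as well, where 6.96% of all frog probe sets had a mean from 3 to 5. The lowest single array value of a detected member was 4.97 and the highest of an undetected member was 2.24, and no member had arrays on both sides of 4.

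**Figure D1:**
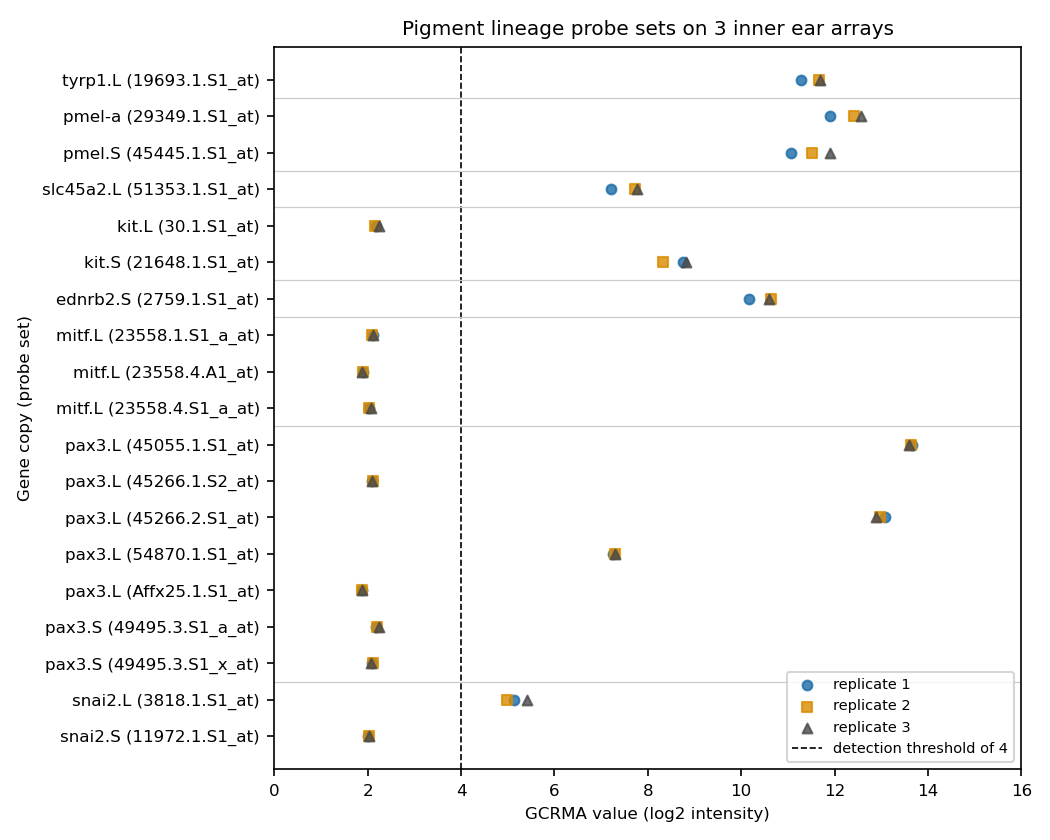
GCRMA value (log2 intensity, x axis) of each of the 19 probe sets (rows, grouped by gene) in replicates 1, 2 and 3, shown as circles, squares and triangles, with the detection threshold of 4 as a dashed line. The 10 detected probe sets lie at 4.97 or higher on all arrays, and the other 9 lie between 1.87 and 2.24.

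The genes of the melanosome were detected in all 3 pools. The gene tyrp1 encodes a melanosomal enzyme of melanin synthesis. Its L copy, measured by the probe set Xl2.19693.1.S1_at, had GCRMA values of 11.29, 11.68 and 11.68 in replicates 1, 2 and 3. Replicate 1 was the low array, and the other pools were almost equal. The mean was 11.55 ± 0.22 (SD, n = 3), with an adjusted p of 8.04e-07 from limma.

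The gene pmel encodes the protein of the fibrils on which melanin is deposited, and it was measured by a pair of probe sets. The probe set Xl2.29349.1.S1_at, annotated as pmel-a, had 11.90, 12.42 and 12.56 in replicates 1, 2 and 3, and its mean was 12.29 ± 0.35 (SD, n = 3; limma, adjusted p = 2.02e-06). The probe set Xl2.45445.1.S1_at, annotated as pmel.S, had 11.06, 11.52 and 11.91, a mean of 11.50 ± 0.43 (SD, n = 3; limma, adjusted p = 5.17e-06). Both placed replicate 1 lowest and replicate 3 highest. The span of pmel.S was the widest of all members, 0.85 on the log2 scale or 1.80-fold between replicates 1 and 3. The gene ID behind pmel-a is missing from the RefSeq table (Xenopus laevis v10.1), so which copy it represents is not settled here.

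The gene slc45a2 encodes a transporter of the melanosome membrane that is needed for full pigmentation. Its L copy (Xl2.51353.1.S1_at) had 7.21, 7.74 and 7.78 in replicates 1, 2 and 3. Replicate 1 was again the low array, by 0.52 and 0.56 on the log2 scale. The mean was 7.58 ± 0.31 (SD, n = 3; limma, adjusted p = 4.88e-05).

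Of the receptors, ednrb2, an endothelin receptor that acts in migrating pigment cell precursors of birds, was measured by its S copy. The probe set Xl2.2759.1.S1_at had 10.17, 10.64 and 10.60 in replicates 1, 2 and 3, so that replicate 1 was low here as well. The mean was 10.47 ± 0.26 (SD, n = 3; limma, adjusted p = 1.97e-06).

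The receptor tyrosine kinase kit, which supports melanoblasts and also blood precursors and mast cells in mammals, differed in detection between its copies. The probe set of kit.S (Xl2.21648.1.S1_at) had 8.75, 8.33 and 8.83 in replicates 1, 2 and 3, and its mean was 8.63 ± 0.27 (SD, n = 3; limma, adjusted p = 9.08e-06). Here replicate 2 was the low array, in contrast to tyrp1, pmel and slc45a2. The probe set of kit.L (Xl2.30.1.S1_at) had 2.18, 2.16 and 2.24, and was not detected on any array. As each copy was read by its own probe set, the difference between copies was not tested.

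The transcription factor mitf, the main regulator of melanocyte fate and of melanosomal genes in vertebrates, was not detected by any of its 3 probe sets, which are all annotated as mitf.L. The probe set Xl2.23558.1.S1_a_at had 2.11, 2.09 and 2.11 in replicates 1, 2 and 3. The probe set Xl2.23558.4.A1_at had 1.89, 1.89 and 1.89, and Xl2.23558.4.S1_a_at had 2.02, 2.02 and 2.08. These are values at the floor of the arrays, where 31.7% of all frog probe sets had a mean under 3. A probe set at the floor does not show that the transcript was absent. The RefSeq table also lists mitf.S, which no probe set is annotated with, as is the case for tyrp1.S, pmel.L and ednrb2.L.

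The paired box factor pax3, which acts in the neural crest and in muscle precursors, had the most probe sets, 5 for pax3.L and 2 for pax3.S, and these gave opposite calls. The pax3.L probe set Xl2.45055.1.S1_at had 13.66, 13.63 and 13.59 in replicates 1, 2 and 3 (13.63 ± 0.03, SD, n = 3; limma, adjusted p = 1.16e-07). The pax3.L probe set Xl2.45266.2.S1_at had 13.07, 12.98 and 12.89 (12.98 ± 0.09, SD, n = 3; limma, adjusted p = 1.27e-07). The pax3.L probe set Xl2.54870.1.S1_at had 7.25, 7.29 and 7.29 (7.28 ± 0.02, SD, n = 3; limma, adjusted p = 1.79e-05). All 3 lay far above the threshold, with the smallest spreads among the detected members.

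The other pax3 probe sets lay at the floor. For pax3.L, Xl2.45266.1.S2_at had 2.10, 2.11 and 2.09 in replicates 1, 2 and 3, and Xl2Affx.25.1.S1_at had 1.88, 1.88 and 1.87. For pax3.S, Xl2.49495.3.S1_a_at had 2.17, 2.20 and 2.23, and Xl2.49495.3.S1_x_at had 2.09, 2.10 and 2.08. The detected pax3.L probe sets are the 3 whose source sequence is an expressed sequence tag, while the 4 at the floor derive from mRNA or cDNA clone sequences. Of all member probe sets, 4 of 4 with an expressed sequence tag as source were detected, the other being that of pmel.S, and 5 of 14 with an mRNA or clone as source were. Over all annotated frog probe sets the shares were 69.8% and 75.3%, with the mRNA and clone sources higher. Whether the 3 detected probe sets report the pax3 transcript was not tested, so the array values do not settle whether pax3 was expressed.

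The zinc finger repressor snai2, which acts when crest cells leave the neural epithelium, was also detected by the probe set of a single copy. The probe set of snai2.L (Xl2.3818.1.S1_at) had 5.14, 4.97 and 5.42 in replicates 1, 2 and 3, with replicate 2 lowest and replicate 3 highest. Its mean of 5.18 ± 0.22 (SD, n = 3) passed limma's test against 4 (adjusted p = 0.0018) but not against 5 (adjusted p = 0.268), and it was the detected member nearest to the threshold. The probe set of snai2.S (Xl2.11972.1.S1_at) had 2.01, 2.03 and 2.02 and was not detected.

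The genes tyrp1, pmel, slc45a2 and ednrb2 had their lowest values on the same array. In the probe sets of tyrp1.L, pmel-a, pmel.S, slc45a2.L and ednrb2.S replicate 1 was lowest, and both other arrays lay at least 0.3 higher on the log2 scale. This was seen for 5 of the 10 detected members, while 5.45% of all detected frog probe sets had it. It was not particular to the members. Of the markers described below, 4 of the 6 detected probe sets of the blood and mast cell list had it. The means over these 6 were 7.76, 8.17 and 9.82 in replicates 1, 2 and 3. The pattern was also seen in 1 of the 7 detected probe sets of the eye list. None of the 10 of the inner ear, 5 of Schwann cells, 12 of muscle, 2 of skin and 12 of connective tissue had it. The rule was set after these values had been seen, each pool has a single array, and no test of the difference between pools was possible. With a gap of 0.5 in place of 0.3, slc45a2.L and pmel-a were the members that met it. The detected probe sets of kit.S and snai2.L had replicate 2 lowest and replicate 3 highest, with spans of 0.496 and 0.443. Those of pax3.L spanned 0.04 to 0.18. A span of 0.5 or more was reached by 3 of the 10, pmel-a, pmel.S and slc45a2.L, beside 25.1% of all detected frog probe sets. The median SD of the detected members was 0.24, and that of all detected frog probe sets was 0.16.

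**Figure D2:**
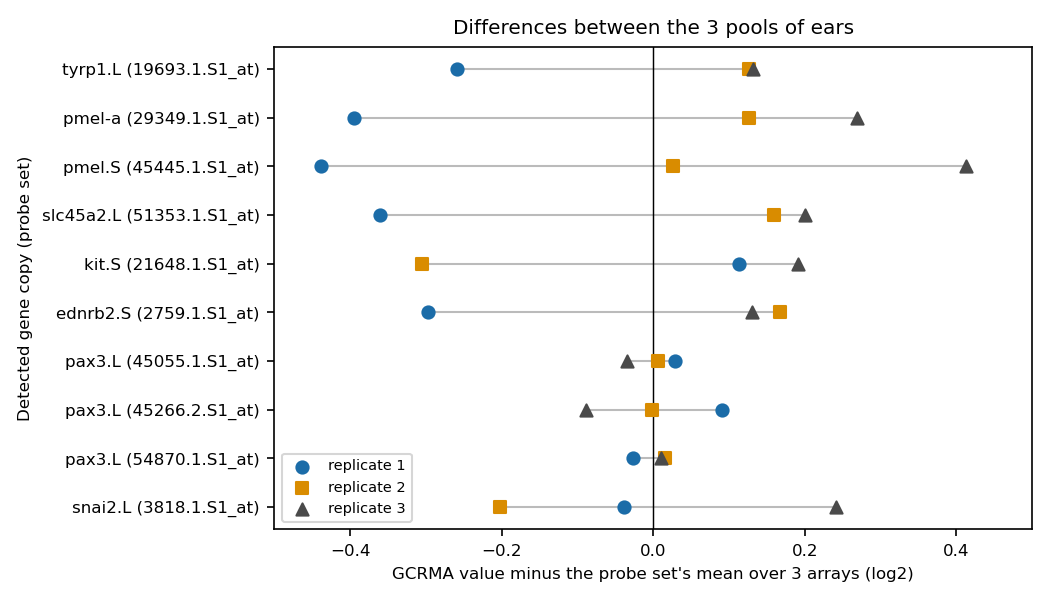
Difference of each array's GCRMA value from the probe set's mean over 3 arrays (log2, x axis) for the 10 detected probe sets (rows), with replicates 1, 2 and 3 as circles, squares and triangles and a line over their span. Replicate 1 lies lowest for tyrp1.L, pmel-a, pmel.S, slc45a2.L and ednrb2.S, and, within a span of 0.04, for the pax3.L probe set Xl2.54870.1.S1_at, and replicate 2 lies lowest for kit.S and snai2.L.

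Other genes of melanin synthesis were covered sparsely. Of 13 listed genes of melanin enzymes and melanosome matrix, 5 had a probe set, the members tyrp1, pmel and slc45a2 and the genes gpr143 and tpcn2. All 8 of their probe sets were detected and passed limma's test, beside 64.8% and 63.1% of all frog probe sets. The members given above make up 4 of these 8. Over annotated frog probe sets the detected share was 69.8% to 75.3% by type of source sequence, and over genes with a symbol it was 79.9%. No probe set was annotated with tyr, dct, mlana, oca2, slc24a5 or mc1r. The gene gpr143 encodes a receptor of the melanosome membrane, and its 3 probe sets did not follow the pattern of tyrp1 and pmel. The gpr143.L probe set Xl2.55013.1.S1_at had 6.14, 7.15 and 5.58 in replicates 1, 2 and 3, Xl2.55013.3.A1_s_at of the same copy had 8.12, 8.54 and 7.56, and that of gpr143.S had 5.06, 5.20 and 4.64. Replicate 2 was highest and replicate 3 lowest in all of them. The probe set of tpcn2.L, an ion channel of the melanosome, had 9.04, 9.42 and 9.004 in replicates 1, 2 and 3, so it too was highest in replicate 2 and lowest in replicate 3. Of the 8 probe sets of this list, 4 were lowest in replicate 1, all of them of tyrp1, pmel and slc45a2, and 4 in replicate 3.

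Of the 21 listed transcription factors of the lineage 18 were measured, and 16 of these had a detected probe set. The exceptions were mitf and pax7, a crest and muscle factor. By probe sets, 30 of the 42 (71.4%) were detected. Over all genes with a symbol and all frog probe sets the shares were 79.9% and 64.8%. Over annotated frog probe sets the share was 69.8% to 75.3% by type of source sequence. The counts include the members mitf, pax3 and snai2, and pax3 counts as detected although its probe sets gave opposite calls. The crest factor sox10, which acts upstream of mitf and is also used by otic epithelium and Schwann cells, had 11.18 ± 0.05 (SD, n = 3). The factor foxd3, which is active in early crest, had 8.03 ± 0.28 for its S copy and 6.22 ± 0.23 for its L copy (SD, n = 3 each). Both sox9 copies, which are also cartilage and otic genes, were detected, at 13.14 ± 0.06 for sox9.S and 12.38 ± 0.08 for sox9.L (SD, n = 3 each). The factor tfap2a lay nearer to the threshold, at 4.93 ± 0.25 for the L copy and 4.27 ± 0.04 for the S copy (SD, n = 3 each; limma, adjusted p = 0.0039 and 0.027). No probe set was annotated with tfec.

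Among receptors and ligands 11 of 22 genes were measured, 8 were detected and 7 passed limma's test. By probe sets, 12 of 19 (63.2%) were detected. The share was 64.8% over all frog probe sets and 69.8% to 75.3% over annotated ones, by type of source sequence. The kit ligand gene kitlg differed in detection between copies, as kit did, with 5.53, 5.54 and 6.08 for kitlg.L and 3.33, 3.34 and 2.84 for kitlg.S in replicates 1, 2 and 3. So kit.S and kitlg.L were the detected copies of the pair. The precursor of the pigment hormone melanocyte-stimulating hormone, pomc, was not detected, although replicate 2 reached 4.16 for pomc.L beside 2.93 and 3.22 in replicates 1 and 3, and pomc.S had 2.72 ± 0.11 (SD, n = 3). No probe set was annotated with ednrb, edn3, erbb3 or asip. The related receptor gene ednra was detected by all 4 of its probe sets, at means of 8.48 to 12.90, and edn1, an endothelin, had 4.28 ± 0.17 (SD, n = 3; limma, adjusted p = 0.0539).

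Genes of melanosome biogenesis and transport were nearly all detected, 23 of 24 measured genes and 40 of 42 probe sets (95.2%). The shares over all genes with a symbol and all frog probe sets were 79.9% and 64.8%, and over annotated frog probe sets 69.8% to 75.3%. Most of the listed genes serve lysosomes and vesicle traffic in all cells. Among those closer to pigment cells, gpnmb, a relative of pmel, had 11.40, 11.75 and 11.66 in replicates 1, 2 and 3. The small GTPase rab38, which brings enzymes to melanosomes, had 6.95, 8.29 and 7.78, with replicate 1 the low array. Over the 40 detected probe sets of this list, 17 were lowest in replicate 1 and 17 in replicate 3, and 2 met the rule of a gap of 0.3. The transport genes rab27a and myo5a, which tether melanosomes to actin and also serve other secretory cells, were detected, at 6.12 ± 0.17 for rab27a.L, 6.01 ± 0.34 for rab27a.S and 8.22 ± 0.54 for myo5a.L (SD, n = 3 each). The gene rab32 of the same list was not detected, at 3.87 ± 0.53 (SD, n = 3). Its probe set had 4.01, 4.31 and 3.29 in replicates 1, 2 and 3, so replicates 1 and 2 lay above 4. No probe set was annotated with mlph.

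**Figure D3:**
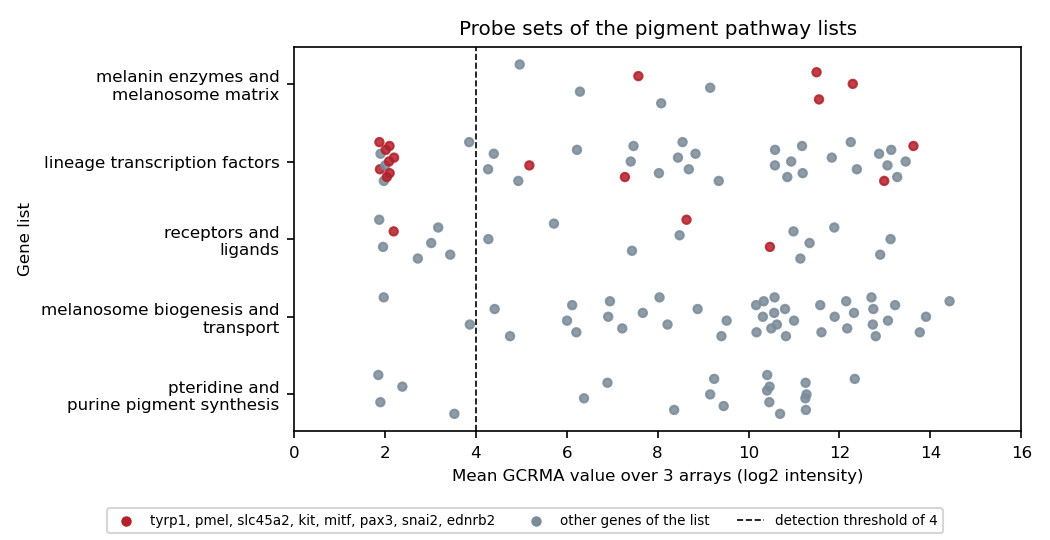
Mean GCRMA value over 3 arrays (log2 intensity, x axis) of every probe set in 5 gene lists (rows, with points spread vertically only for legibility), with the 8 member genes in red, other genes in grey and the threshold of 4 as a dashed line. The melanin list lies wholly above 4, with 8 of 8 probe sets, and the 12 undetected probe sets of the transcription factor list include 3 of mitf and 4 of pax3.

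The dissected tissue can hold other cells that use these genes, and marker lists of such cells were read from the same arrays. The detected share was 64.8% over all frog probe sets and 69.8% to 75.3% over annotated ones, by type of source sequence. These shares stand beside the counts of each marker list. Of 13 listed inner ear markers 6 were measured. All 10 of their probe sets were detected, at a list mean of 12.48, 12.51 and 12.50 in replicates 1, 2 and 3. No probe set was annotated with the hair cell markers myo7a, atoh1 and pou4f3, or with oc90, otol1, otog and tecta. The melanophore list rests on the members tyrp1, pmel and slc45a2 alone, since tyr, dct, mlana, oca2 and slc24a5 had no probe set, and its mean was 10.36, 10.84 and 10.98.

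The eye also holds pigmented cells, and its pigment epithelium uses tyrp1, pmel, slc45a2 and mitf. Of the list for eye pigment epithelium, lens and retina, 7 of 21 probe sets were detected. Both copies of rpe65, the retinoid isomerase of the pigment epithelium, were among them, with 9.24, 9.72 and 9.24 for rpe65.L and 9.13, 9.36 and 9.12 for rpe65.S in replicates 1, 2 and 3. The opsin relative rgr.L had 11.84, 12.07 and 11.59, the homeobox gene otx2.L, which also acts in the ear, had 12.92, 12.85 and 12.83, and the lens crystallin cryba1.L had 7.40, 7.87 and 7.87. Photoreceptor genes gnat1, gnat2, sag and pde6b and the lens genes cryaa and crybb1 were not detected, and neither was lrat. A probe set of rlbp1.L, a retinoid-binding protein, had 4.94, 7.07 and 5.06, and otx2.S had 5.37, 5.02 and 5.68. The means over all 21 probe sets were 4.31, 4.41 and 4.25, and over the 7 detected ones they were 8.69, 9.14 and 8.77. Of these 7, 2 were lowest in replicate 1 and 3 in replicate 3. The probe set of cryba1.L met the rule of replicate 1 lowest by at least 0.3. Without this rlbp1.L probe set the means over the rest of the list were 4.28, 4.28 and 4.21, a choice made after the values had been seen. The part of such cells in the member values was not tested.

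Markers of muscle and blood spanned more between the pools than the members did. The 17 muscle probe sets had means of 8.95, 9.03 and 7.74 in replicates 1, 2 and 3, and the 12 detected ones were all lowest in replicate 3. The muscle precursor genes myod1, myf5 and pax7 were not detected, which does not show that their transcripts were absent. Over all 10 blood and mast cell probe sets, whether detected or not, the means were 5.44, 5.68 and 6.70. The detected ones were mostly globins, and of the 6 at a mean of 4 or higher 4 passed limma's test. The leukocyte marker ptprc was not detected. The mast cell markers cpa3 and hdc had no probe set. The 12 connective tissue probe sets had means of 13.00, 12.66 and 12.88, and 9 of them were lowest in replicate 2, as were 32.5% of all detected frog probe sets. For Schwann cells, which share the crest origin, 5 of 6 probe sets were detected, and the means over all 6 were 12.05, 12.08 and 12.17. For skin epidermis, 4 of 10 listed genes were measured, and no probe set was annotated with krt5, krt12, krt14, krt15, dsc1 or dsg1. Of its 8 probe sets 2 were detected, both of epcam. The genes itln1, otogl2 and tp63 were not detected, with tp63 at the floor. The part of any of these tissues in the member values was not tested.

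**Figure D4:**
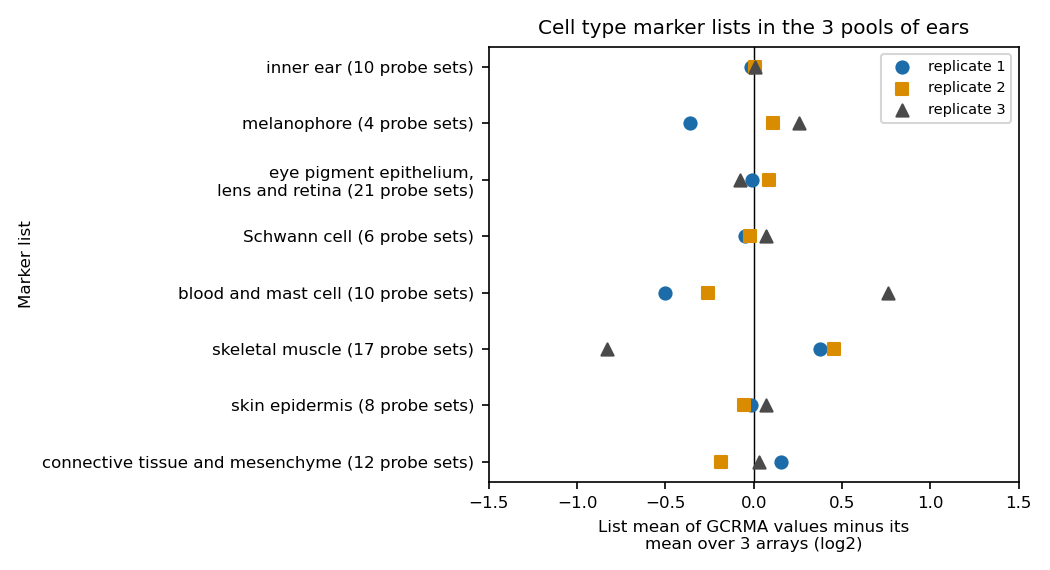
Mean GCRMA value of all probe sets of each marker list, detected or not, minus its mean over 3 arrays (log2, x axis), for 8 lists (rows, with the number of probe sets), with replicates 1, 2 and 3 as circles, squares and triangles. The melanophore list, which consists of member genes, is lowest in replicate 1, muscle is lowest in replicate 3 and blood is highest in replicate 3.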

How the data were processed

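Inner ear RNA from 3 pools of larvae was hybridized to 3 Affymetrix arrays for X. laevis. The authors deposited log2 values from GCRMA, a method that corrects background, normalizes arrays to each other and summarizes the probes of each set. The software used for this is not given in the sources used here. The table holds 32475 frog probe sets and 160 controls and reporters, which were left out. Of the frog probe sets, 15495 have 1 symbol in the platform annotation, 279 have several and 16701 have none. Probe sets with several symbols were not used.

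The members and gene lists were chosen with earlier results of these data known. Every member probe set was named, and further genes came from a fixed list or were named as examples after their values were seen. Whether a mean exceeded 4 was tested one-sided with limma 3.58.1 in R 4.3.3, with a prior variance that follows the mean level. P-values were adjusted by the Benjamini-Hochberg method across every frog probe set (threshold 0.05), and the step was tested on simulated data. Each p-value sets a mean over 3 arrays against 4, with a variance that combines the probe set's own spread with this prior. It does not separate the spread between pools from that between arrays. Expressed sequence tags were told from other sources by the prefix of the source accession. Alternatives changed the threshold, summary, normalization, variance prior, filter on low values, arrays, probe set types and symbols. No sequences were given for these genes.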

Additional observations from a re-analysis of the deposited data

How the results depend on the processing

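The 10 detected members were called at thresholds of 3 and 5 and by the median or the lowest array. They were also called after both renormalizations and without each replicate in turn (10 to 10). No member had arrays on both sides of 4, so the median, the lowest array and leaving out a replicate could not change this count. With symbols updated through RefSeq 9 were called, as this dropped pmel-a. In limma 10 members passed under every alternative except a threshold of 5, which left 9 without snai2.L, and the updated symbols, which also left 9. A span between arrays of at least 1 was reached by 0 members, where 0.5 gave 3. The rule for members lowest in replicate 1 was set after the data had been seen, and it gave 2 with a gap of 0.5, 5 with a gap of 0.2 and 4 with updated symbols. The counts of the gene lists stayed within 1.5 times under all alternatives run. No paired analysis was possible because there is a single group. With 3 arrays and 1 array per pool, differences between pools and differences between arrays cannot be told apart.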

Other observations

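Yellow and reflecting pigment cells of amphibians colour themselves with pteridines and purines. Of 18 listed genes of these syntheses 13 were measured and 12 had a detected probe set, beside 79.9% of all genes with a symbol. The exception was gart, an enzyme of purine synthesis. Most of these enzymes serve nucleotide and cofactor synthesis in every cell, so their detection marks no cell type. Replicate 1 alone was the lowest array for 13 of the 16 detected probe sets and tied with another array for 1. Over all detected frog probe sets it alone was lowest for 31%. In 2 of the 16 it was lowest by at least 0.3 on the log2 scale, Xl2.11332.1.S1_at of impdh1.L and the probe set of impdh2.S. The impdh1.L probe set Xl2.11332.2.S1_at had 10.24, 10.31 and 10.68 in replicates 1, 2 and 3 and did not meet this gap. The purine enzyme gene pnp.L had 12.21, 12.37 and 12.43 in replicates 1, 2 and 3, and spr.L, which acts in pteridine synthesis, had 10.32, 10.56 and 10.51. The gene pts.L, of the same pathway, ran the other way, with 11.50, 11.31 and 10.96. Which cells these values come from was not tested, and the order of the arrays was noticed after the values had been seen.

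The adenosine receptor adora2a.L had 7.10, 7.50 and 7.70 in replicates 1, 2 and 3. Replicate 1 was lowest, as it was for 4 of the 12 detected probe sets of receptors and ligands. The probe set of adora2a.S had 2.69, 2.97 and 3.39 and was not detected. The mesenchyme factor twist1.L had the widest span of the listed transcription factors, with 8.42, 6.69 and 7.29.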
